A study of Mus musculus with 2 samples.

Results

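Of 10 genes that encode proteins of elastic fibres and microfibrils, 8 were measured in rib chondrocytes of Matn1 mutant and wild-type mice. The genes were chosen by name, as Fbn1, Fbn2, Eln, Mfap2, Mfap4, Mfap5, Fbln1, Fbln2, Fbln5 and Efemp2, through every probe set whose platform annotation names that gene alone. This gave 16 of 45037 probe sets and 8 of 18193 genes. Fbn1 and Efemp2, the genes of fibrillin-1 and fibulin-4, had no such probe set and were not analysed here. The study compared 1 array of V156D mutant chondrocytes with 1 array of wild-type chondrocytes. Matn1 encodes the cartilage matrix protein matrilin-1, and V156D is the amino acid change its mutant allele carries. All mice were killed at 5 days of age, and the cells were freed from dissected ribs with collagenase. RNA came from a pool of 5 littermates, so an array stands for a pool and carries no spread between animals. The sources used here do not give strain, sex or whether 1 or both Matn1 alleles carried the change.

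Fibrillins are long extracellular glycoproteins that assemble end to end into microfibrils, the threads found in nearly all connective tissue. Where elastin is made, its soluble precursor is laid onto the microfibrils with the help of fibulins and is then crosslinked by lysyl oxidases into an elastic fibre. Microfibrils also hold latent TGF-beta and BMPs, and in cartilage they surround the chondrocytes and run through the perichondrium, the fibrous sheath of the cartilage.

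Affymetrix Mouse Genome 430 2 arrays gave a linear intensity for every probe set, and a gene's value is that of its brightest probe set over both arrays. The median intensity over all probe sets was 55.1 in the mutant and 54.3 in the wild type. The floor used for weak signals was an intensity of 54.6, the 50th percentile over probe sets, and all 8 measured members lay above it in both arrays. With 1 array per genotype there was no replicate error and no test, and precision is limited by the number of arrays. "Higher" and "lower" therefore describe how the mutant array stood to the wild-type array. Matn1 itself had intensities of 4340 in the mutant and 4373 in the wild type, and a probe set of this kind is not built to tell alleles apart. Xist was at 5006 in the mutant and 7755 in the wild type, and the Y-linked Eif2s3y at 490 in the mutant and 230 in the wild type, so the pools also differed in sex-linked transcripts, which cannot be told apart from the genotype. The level in a pool of cells also does not separate fewer cells of a type from less RNA per cell.

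The measured members were all higher in the mutant array, and 6 of the 8 were at least 1.5-fold higher. Fbln5, Mfap5, Mfap4 and Fbln2 were at least 2-fold higher, Mfap2 and Fbn2 lay between 1.5-fold and 2-fold, and Fbln1 and Eln did not reach 1.5-fold. The mutant signal was at least 1.5 times the wild-type signal for 193 (1.70%) of the 11329 genes at or above the floor, and passed 2-fold for 74 (0.653%). No member reached 3-fold, which 16 genes (0.141%) did. No member was 1.5-fold or 2-fold lower, against 229 genes (2.02%) and 29 genes (0.256%) overall. The log2 ratio, mutant over wild type, had a median of 0.97 over the 8 members and -0.02 over all genes at or above the floor. The 4 members past 2-fold depended on how low signals were treated: with 32 added to every intensity before the log, Fbln5 alone passed 2-fold, while 6 members still passed 1.5-fold.

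**Figure D1:**
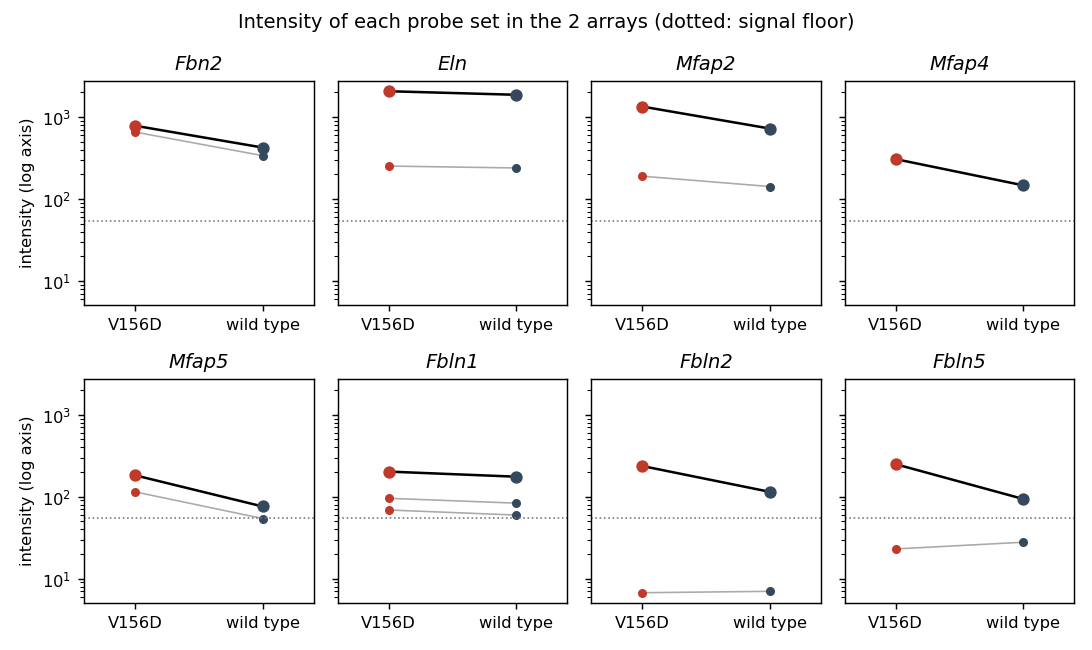
Intensity (log axis) of every probe set of the 8 measured members in the V156D array (red, left) and the wild-type array (dark blue, right). Large points joined by black lines are the brightest probe set of a gene, small points its other probe sets, and the dotted line is the signal floor of 54.6; Eln and Fbln1 are nearly level, and the brightest probe sets of the other 6 genes are higher in the V156D array.

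Fbn2 encodes fibrillin-2, the fibrillin most abundant in embryonic and early postnatal tissue, and mutations of the human gene cause congenital contractural arachnodactyly. Its brightest probe set had an intensity of 784 in the mutant and 424 in the wild type, a 1.85-fold difference. The second probe set had 656 in the mutant and 338 in the wild type, which is 1.94-fold. The log2 ratios of 0.89 and 0.96 differed by less than the usual disagreement of such pairs, since over 4878 genes the difference between the 2 brightest probe sets had an SD of 0.26.

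Eln encodes tropoelastin, the soluble precursor of the elastic core. Its brightest probe set had 2069 in the mutant and 1871 in the wild type, a log2 ratio of 0.14. The second had 252 in the mutant and 239 in the wild type, a log2 ratio of 0.08. Both ratios lay inside the central 95% of all genes at or above the floor, which ran from -0.55 to 0.49. The transcript of the core protein was thus close to level between the arrays, and 2143 genes ranked above it by ratio.

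Mfap2 and Mfap5 encode the small microfibril-associated glycoproteins MAGP-1 and MAGP-2, which bind fibrillins. Mfap2 had 1345 in the mutant and 724 in the wild type, a 1.86-fold difference. Its dimmer probe set, of the _x_at kind that may match transcripts of other genes, had 190 in the mutant and 142 in the wild type, or 1.34-fold. The probe sets of Mfap2 therefore shared their direction and differed in size. Mfap5 had 182 in the mutant and 75.9 in the wild type, a 2.40-fold difference. Its second probe set had 114 in the mutant and 54.1 in the wild type, and was 2.12-fold higher, with the wild-type value just under the floor. Adding 32 to the intensities lowered the log2 ratio of Mfap5 to 0.99, against 1.26 without it.

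Mfap4 encodes a secreted protein with a fibrinogen-like domain that binds elastin and fibrillin microfibrils. It had 306 in the mutant and 147 in the wild type, 2.09-fold higher. It was the only measured member with a single probe set, so no second reading within the arrays was at hand. With 32 added its log2 ratio was 0.92, short of 2-fold.

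Fibulins join microfibrils, elastin and basement membranes, and the log2 ratios of the 3 that were measured ran between 0.21 and 1.41. Fbln5 encodes fibulin-5, without which mice do not form normal elastic fibres. It had 249 in the mutant and 93.6 in the wild type, 2.66-fold higher, and its log2 ratio of 1.41 was the highest of the members and ranked 26 of 11329 genes. Its other probe set lay below the floor in both arrays, at 23.0 in the mutant and 27.8 in the wild type. Fbln2 encodes fibulin-2, a protein of vessel walls, basement membranes and developing cartilage. It had 237 in the mutant and 115 in the wild type, 2.07-fold higher. Its other probe set lay near the bottom of the scale, at 6.72 in the mutant and 6.99 in the wild type. The directions of Fbln5 and Fbln2 thus each rest on 1 probe set, and the bright Fbln2 probe set is of the _a_at kind, which matches alternative transcripts of 1 gene. Where probe sets ending in _s_at, _x_at or _a_at were left out, Fbln2 was read from the dim one, with a log2 ratio of -0.06.

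Fbln1 encodes fibulin-1, found in basement membranes and on elastic fibres. Its brightest probe set had 202 in the mutant and 175 in the wild type. The second probe set had 95.6 in the mutant and 83.4 in the wild type, and the third had 68.8 in the mutant and 59.7 in the wild type. All 3 lay at or above the floor and gave nearly the same log2 ratio, 0.20 ± 0.01 (SD over probe sets, not over samples). Fbln1 thus stood nearer to Eln than to Fbln2 and Fbln5, although with 1 array per genotype no difference between these ratios could be tested.

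**Figure D2:**
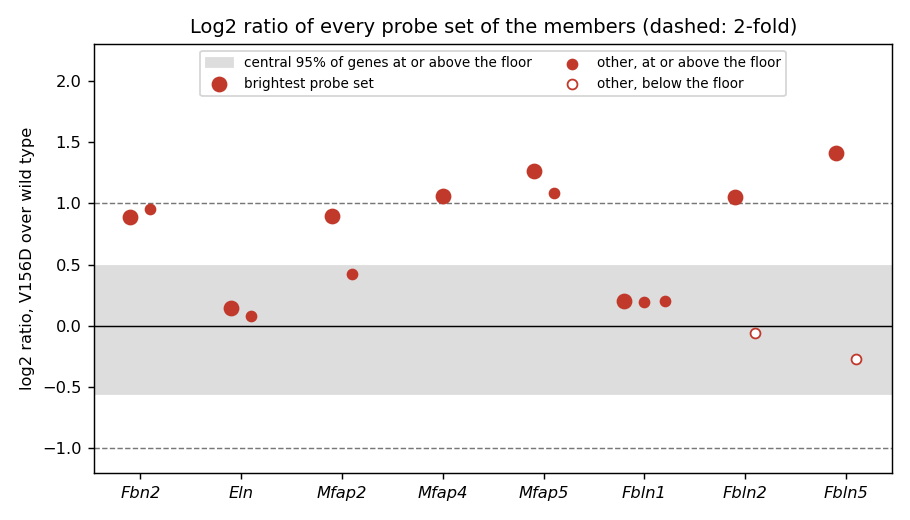
Log2 ratio of V156D over wild type (vertical axis) for each of the 16 probe sets of the members (horizontal axis, by gene). Large filled points are the brightest probe set, small filled points others at or above the floor, open points those below it, the grey band is the central 95% of all genes at or above the floor (-0.55 to 0.49) and dashed lines mark 2-fold; the 3 points of Fbln1 and both of Eln lie inside the band, and the open points belong to Fbln2 and Fbln5.

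Counted by probe set, 14 of the 16 lay at or above the floor and all 14 were above 0 on the log2 scale. Of these 14, 8 passed 1.5-fold and 5 passed 2-fold. Over genes at or above the floor, each by its brightest probe set, the shares were 1.70% and 0.653%, and no share over probe sets was computed. Probe sets of 1 gene are repeat readings of that gene on the same arrays. The 2 probe sets with ratios below 0 were the dim ones of Fbln2 and Fbln5. For 5 members several probe sets cleared the floor, and within each of these genes they gave a single sign.

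**Figure D3:**
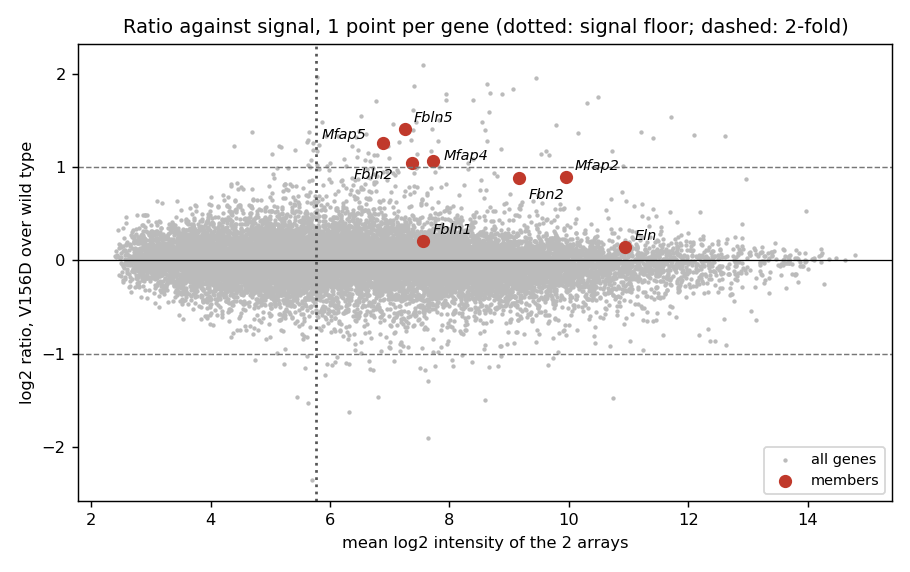
Log2 ratio of V156D over wild type (vertical axis) against the mean log2 intensity of both arrays (horizontal axis), with 1 grey point per gene and the 8 measured members in red. The dotted line is the signal floor and dashed lines mark 2-fold; Eln, at a ratio of 0.14, and Fbln1, at 0.21, lie in the dense cloud, and the other 6 members lie above it.

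Promoter sequence was listed for 4 of the 8 measured members, Fbln5, Fbln2, Mfap2 and Fbln1, and is shown because these 4 split into 3 genes that were over 1.5-fold higher and 1, Fbln1, that was not. Each line gives the 250 bases before the outermost listed transcription start, 5′ to 3′ on the gene's strand, from RefSeq on GRCm38.p6. Capitals mark matches, on either strand, to a GC box (GGGCGG) or a SMAD box (CAGAC). The windows are chr12:101819120-101819369 (minus strand), chr6:91212514-91212763 (plus strand), chr4:141010174-141010423 (plus strand) and chr15:85205699-85205948 (plus strand).
Fbln5: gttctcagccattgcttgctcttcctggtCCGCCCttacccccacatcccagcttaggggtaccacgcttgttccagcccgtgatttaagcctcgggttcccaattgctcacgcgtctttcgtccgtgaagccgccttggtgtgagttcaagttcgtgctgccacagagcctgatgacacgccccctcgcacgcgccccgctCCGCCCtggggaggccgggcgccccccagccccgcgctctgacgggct
Fbln2: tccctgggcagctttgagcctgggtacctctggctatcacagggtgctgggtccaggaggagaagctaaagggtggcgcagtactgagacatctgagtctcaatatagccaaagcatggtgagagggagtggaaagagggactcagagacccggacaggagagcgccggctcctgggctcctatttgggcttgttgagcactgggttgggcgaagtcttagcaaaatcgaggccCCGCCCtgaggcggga
Mfap2: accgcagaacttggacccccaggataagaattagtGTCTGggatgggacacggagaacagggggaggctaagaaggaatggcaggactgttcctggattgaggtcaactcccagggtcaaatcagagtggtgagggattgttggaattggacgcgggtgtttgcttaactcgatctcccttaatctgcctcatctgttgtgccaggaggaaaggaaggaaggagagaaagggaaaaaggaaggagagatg
Fbln1: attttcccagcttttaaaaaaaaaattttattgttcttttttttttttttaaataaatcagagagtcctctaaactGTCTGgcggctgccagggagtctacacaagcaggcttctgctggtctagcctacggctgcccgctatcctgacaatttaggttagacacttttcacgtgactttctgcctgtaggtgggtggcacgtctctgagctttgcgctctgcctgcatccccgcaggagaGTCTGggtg

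The matches differed among the 3 fibulin genes. GC boxes, the letters bound by Sp1-type factors, were in the windows of Fbln5, at bases 221 to 216 and 48 to 43 before the start, and of Fbln2, at bases 16 to 11. A SMAD box, the short core bound by SMAD proteins of the TGF-beta pathway, was in the windows of Mfap2, at bases 215 to 211, and of Fbln1, at bases 174 to 170 and 9 to 5. Among 32851 RefSeq windows of the same length, 32.7% held a GC box and 42.2% a SMAD box, so either is common. A TATA box (TATAAA), an AP-1 site (TGANTCA) and the CArG box bound by serum response factor had no match in the 4 windows, and were in 12.4%, 6.75% and 1.47% of all windows. No matched letters of GC and SMAD boxes overlapped in these windows. The G and C content was 65.2% for Fbln5, 58.8% for Fbln2, 51.2% for Mfap2 and 46.4% for Fbln1, and 53.2% over all windows. These matches describe the sequence alone.

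Other genes that build, hold or break down elastic fibres were read from 9 lists with 59 entries, of which 56 were measured and 47 lay at or above the floor. Of these 47, 33 had ratios above 0 and 14 below, and 8 passed 1.5-fold upward and 1 downward, beside 1.70% and 2.02% of all genes. The median log2 ratio was 0.20, less than that of the members. With each gene as the mean of its probe sets, 42 of these genes lay at or above the floor and 4 were at least 1.5-fold higher. After the loess correction for signal, 39 of 47 had ratios above 0. The median over all genes at or above the floor was then 0.005, against -0.02 without the correction. The share of all genes above 0 was not computed in either setting.

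Latent TGF-beta binding proteins anchor latent TGF-beta to microfibrils, and 3 of the 4 were above 0, with a list median of 0.51. Ltbp2, which binds fibrillin-1 but no latent TGF-beta, had 509 in the mutant and 301 in the wild type, 1.69-fold higher. EMILINs and multimerins are glycoproteins that share a cysteine-rich domain, and all 4 that cleared the floor had ratios above 0, with a median of 0.44. Mmrn2, a multimerin of the vessel wall, had 112 in the mutant and 60.6 in the wild type, 1.85-fold higher. The mean log2 ratio of its 4 probe sets was 0.53, but only 1 of them lay at or above the floor. Of the other fibulin-like genes, Hmcn1, which encodes hemicentin-1, had 155 in the mutant and 60.3 in the wild type, 2.56-fold higher. Efemp1 and Fbln7, which encode fibulin-3 and fibulin-7 and are named after their values were seen, had log2 ratios of -0.41 and -0.08.

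Among lysyl oxidases, the enzymes that crosslink elastin and collagen, 3 of 4 were above 0 and 1 passed 1.5-fold. That was Lox, with 2090 in the mutant and 1321 in the wild type, 1.58-fold higher. The mean log2 ratio of its 3 probe sets was 0.28, but the 2 at or above the floor were at 0.55 and 0.66. ADAMTS-like proteins and the related ADAMTS proteases bind fibrillin microfibrils, and all 6 that cleared the floor had ratios above 0, with a median of 0.44. Adamtsl3 was the member of that list past 1.5-fold, with 233 in the mutant and 122 in the wild type, 1.91-fold higher.

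The growth factors that microfibrils hold differed less. Of 8 TGF-beta and BMP family genes, 6 were above 0, none reached 1.5-fold and the median was 0.18, each by its brightest probe set. By that reading Bmp4 was highest, with 74.5 in the mutant and 57.9 in the wild type. Bmp2 was lowest, with 2059 in the mutant and 2511 in the wild type. A dimmer probe set of Tgfb2 at or above the floor had a log2 ratio of -0.54, against -0.06 by its brightest. Integrins are the cell receptors for fibrillins and fibulins, and 4 of 5 at or above the floor lay between -0.07 and 0.08 by the brightest probe set. The exception was Itga8, the integrin alpha-8 chain, with 137 in the mutant and 54.9 in the wild type, 2.50-fold higher. The mean log2 ratio of its 2 probe sets was 0.92, and 1 of them lay at or above the floor. Among the other 4 genes, dimmer probe sets at or above the floor reached 0.35 for Itgb1, 0.28 for Itgb5 and -0.35 for Itga5.

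Proteases able to cut elastin differed in both directions. Ctsk, which encodes cathepsin K, had 1095 in the mutant and 498 in the wild type, 2.20-fold higher. Mmp12, the macrophage elastase, had 76.7 in the mutant and 137 in the wild type, 1.78-fold lower, and was the 1 gene of these lists past 1.5-fold in that direction. The list median was -0.15. Among the 7 assembly partners, such as fibronectin and proteoglycans, Vcan passed 1.5-fold and the median was 0.04. Vcan encodes versican, a large proteoglycan that binds fibrillin-1, and had 197 in the mutant and 102 in the wild type, 1.93-fold higher. The mean log2 ratio of its 8 probe sets was 0.43, but only 2 of them lay at or above the floor, at 0.95 and 1.09.

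Collagens of fibrous tissue and of cartilage were read beside the members, since both kinds of collagen share the matrix with microfibrils. Of 6 interstitial fibrillar collagen genes, 5 were higher, 4 at least 1.5-fold and 2 at least 2-fold, with a median log2 ratio of 0.74. Over all genes at or above the floor, 1.70% were at least 1.5-fold and 0.653% at least 2-fold higher. Col1a1, a chain of collagen I, had 7010 in the mutant and 2759 in the wild type, and Col5a2, a collagen V chain, had 4268 in the mutant and 1716 in the wild type. Col3a1 was 1.83-fold and Col5a1 1.52-fold higher, each by its brightest probe set. Of 8 cartilage collagen genes, 4 had ratios above 0, 4 below, and none reached 1.5-fold. Their median was 0.00, and it was -0.02 with each array centred on its median and 0.05 after the loess correction. The order of the members and the interstitial collagens turned with the probe sets used. With the brightest probe set the median log2 ratio was 0.97 for members and 0.74 for interstitial collagens. The medians were 0.66 for members and 1.12 for interstitial collagens with the mean over probe sets, and 0.89 and 1.12 without probe sets ending in _s_at, _x_at or _a_at. Whether the lists differ was not tested, as the design allows no test.

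Markers of other cells differed between the same arrays. All 16 fibroblast, tendon and perichondrium markers cleared the floor and 14 of them were above 0, with a median of 0.81. At least 1.5-fold higher were 9 and at least 2-fold higher 6, beside 1.70% and 0.653% of all genes at or above the floor. The 16 markers summed to 76379 in the mutant and 47979 in the wild type. Of the 16, 3 are the collagen genes Col1a1, Col1a2 and Col3a1 counted above. Kera, which encodes keratocan, was highest at 3.47-fold, and Pdgfra lowest at a log2 ratio of -0.10. None of these markers was near 0, the lowest intensity being 50.1. Their part in the members' higher signal was not tested.

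Endothelial cells and smooth muscle also make fibulins and elastin. Beside the counts below, 1.70% of all genes at or above the floor were at least 1.5-fold higher and 2.02% lower. Of 12 endothelial markers 8 lay at or above the floor, of which 7 were above 0 and 4 passed 1.5-fold, with summed intensities over all 12 of 1399 in the mutant and 950 in the wild type. Cdh5, the cadherin of vessel walls, had 144 in the mutant and 55.1 in the wild type, and Egfl7 was lowest of the 8, at 181 in the mutant and 206 in the wild type, a log2 ratio of -0.19 that was 0.06 as the mean over its probe sets. Pecam1, an adhesion molecule of endothelium, had 74.8 in the mutant and 35.3 in the wild type, with a mean signal below the floor, so it is not among the 8. Of 9 smooth muscle and pericyte markers at or above the floor, 3 were at least 1.5-fold higher and 1 lower, with a median of 0.10 and summed intensities over all 10 measured of 6366 in the mutant and 5534 in the wild type. Acta2, smooth muscle actin, was at 2353 in the mutant and 2214 in the wild type, Rgs5, a pericyte marker, at 626 in the mutant and 224 in the wild type, and Cnn1, a contractile protein of smooth muscle, at 69.6 in the mutant and 147 in the wild type. The weakest marker was at 15.3 among endothelial and at 31.3 among smooth muscle genes, so none was at 0, and their part in the members' signal was not tested.

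Chondrocyte markers, which check the labelled cell type, were bright, and by their brightest probe sets their median was near 0. All 17 lay at or above the floor, with a lowest intensity of 2555. Col2a1, the main cartilage collagen, had 29057 in the mutant and 27997 in the wild type. None of the 17 reached 1.5-fold, and their summed intensity was 196850 in the mutant and 196081 in the wild type. Their median was 0.02, and -0.00 with each array centred on its median. Ucma was lowest, at a log2 ratio of -0.38, and Col11a2 highest, at 0.15. Dimmer probe sets at or above the floor went as low as -0.49 for Sox9, against -0.29 by its brightest. They reached -0.30 for Col9a3, -0.24 for Matn3 and -0.19 for Hapln1, against -0.01, -0.15 and 0.05 by the brightest. For Ucma the dimmer one gave -0.01. Whether very bright probe sets understate differences was not tested. Heat shock and immediate early genes, which respond to the release of cells, were lower in the mutant in 14 of 14 cases, with a median of -0.25. The share of all genes below 0 was not computed. By their brightest probe sets the immediate early genes lay between -0.28 for Jun and -0.06 for Egr1. At least 1.5-fold lower were 4 of the 14, beside 2.02% of all genes at or above the floor. They were the heat shock genes Hsph1 (-0.86), Dnajb1 (-0.64), Hspb8 (-1.14) and Dnaja4 (-1.48). Dnaja4, a co-chaperone, was at 1024 in the mutant and 2857 in the wild type, so the preparations differed in these transcripts, and their part in the members' ratios was not tested.

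**Figure D4:**
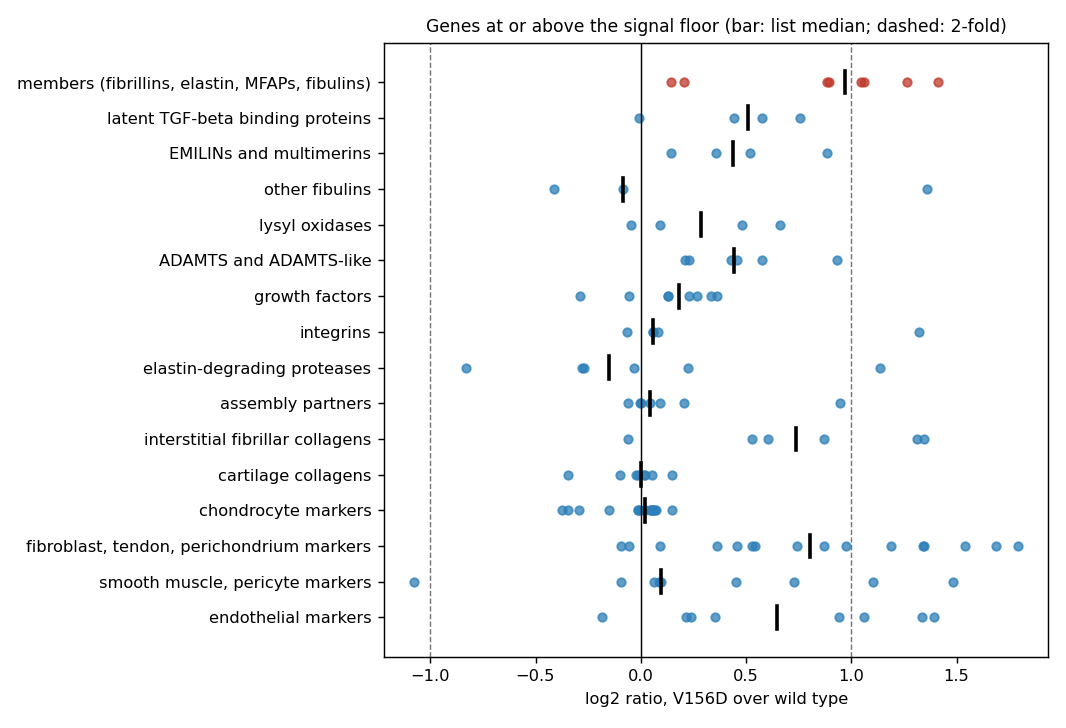
Log2 ratio of V156D over wild type (horizontal axis) for the genes at or above the signal floor in each list (rows), with the members in red and other lists in blue. Black bars are list medians and dashed lines mark 2-fold; the median is 0.97 for the members, 0.74 for interstitial collagens, 0.81 for fibroblast, tendon and perichondrium markers and 0.02 for chondrocyte markers.

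Settings were varied to see how far the members' ratios moved. Centring on the array median, quantile normalization and the loess correction left 6 members at least 1.5-fold and 4 at least 2-fold higher. Averaging the probe sets of each gene took Fbln5 to a log2 ratio of 0.57 and Fbln2 to 0.50, through their dim probe sets. The ratio of Fbn2 stayed between 0.84 and 0.94, that of Mfap4 between 0.92 and 1.09, and that of Eln between 0.11 and 0.21 over the 7 settings shown.

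**Figure D5:**
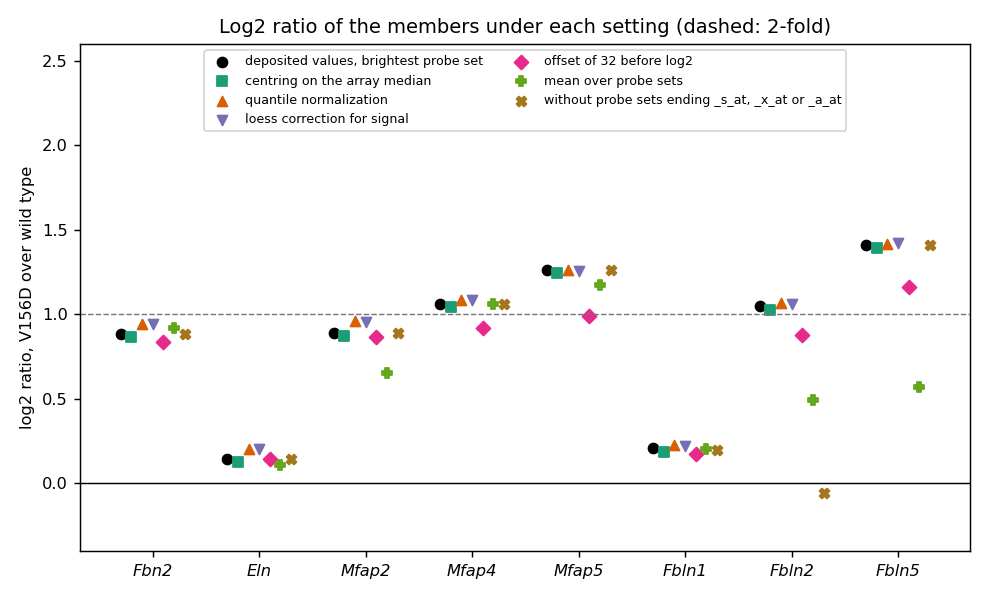
Log2 ratio of V156D over wild type (vertical axis) for the 8 measured members (horizontal axis) under 7 settings, 1 symbol per setting, with 2-fold dashed. Scaling settings lie close together for every gene, with the offset Fbln5 alone lies above the dashed line, and Fbln2 reaches -0.06 where probe sets ending in _s_at, _x_at or _a_at are left out.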

How the data were processed

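RNA from rib chondrocytes of V156D mutant and wild-type mice was hybridised to 2 Affymetrix Mouse Genome 430 2 arrays, 1 per genotype. The authors deposited a linear intensity per probe set and array; the submitters' processing notes name MAS5 but no version or settings. The sources used here give no background correction, scaling target or detection call, so whether the arrays were scaled together is unknown and differences at low signal may be compressed. No depth applies to arrays.

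Of 45037 probe sets, 34945 carried 1 gene symbol in GEO's platform annotation, 932 several and 9160 none listed here. Symbols were matched by Entrez identifier to RefSeq GRCm38.p6 for 34741, and 0 changed. Ratios are log2 of mutant over wild type from the deposited values, with each gene taken at its brightest probe set and a floor at the 50th percentile of mean log2 signal. With 1 array per group no test was run. Calls are fold thresholds of 1.5, 2 and 3. Members and lists were chosen with earlier results of these data known. Named list genes were mostly those at or above the floor and past 1.5-fold, or else the highest and lowest of a list. For marker lists, the first 2 measured, the highest and the lowest were eligible. Outside this rule, some genes of the chondrocyte, integrin and growth factor lists were named for their dimmer probe sets. Jun and Egr1 were named for the range of the immediate early genes. No gene was named for a pattern like a member's, as 2 arrays give 1 difference.

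Alternatives were median centring, quantile normalization, loess (span 0.3), an offset of 32, the mean over probe sets, leaving out probe sets whose names end in _s_at, _x_at or _a_at, no floor, and a floor at percentile 40 or 60. The counting of 2-fold calls was tested on simulated data with planted differences larger than that of any member. It therefore does not cover differences of the size reported here. The work used numpy 2.4.6 with pandas 2.3.3 under Python 3.11.15, statsmodels 0.14.6 for loess and matplotlib 3.10.9 for plots.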

Additional observations from a re-analysis of the deposited data

How the results depend on the processing

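The count of 4 members at least 2-fold higher was 1 with the offset of 32, 2 with the mean over probe sets and 0 at a 3-fold threshold. Under the mean over probe sets the members' median log2 ratio was 0.66, over 7 members at or above the floor, and 4 pathway genes were at least 1.5-fold higher, against 8. Fbln2 had a log2 ratio of -0.057 with the setting that leaves out probe sets ending in _s_at, _x_at or _a_at. The offset compresses low signals by construction, and the other 2 settings bring in dim probe sets. The count of members at least 1.5-fold higher ran from 4 to 6, and no member was 1.5-fold lower under any setting. Of 48 ratios of single members under alternatives, 44 moved by less than 0.26. That value is the SD, over genes, of the difference between the 2 brightest probe sets of a gene. Over all genes, the offset left 45 at least 2-fold higher and 13 lower, against 74 and 29, and 146 at least 1.5-fold lower, against 229, which the mean over probe sets put at 142. No paired analysis was possible because each genotype had 1 array. With no replicate, leaving out an array was not possible either.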

Other observations

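Not every gene with a microfibril name belongs to microfibrils, and 2 of these were measured. Mfap3 had 369 in the mutant and 347 in the wild type, and Mfap3l had 78.2 in the mutant and 71.0 in the wild type, so neither approached 1.5-fold.

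Among markers of other tissues near the rib, Tnnt3, a troponin of fast skeletal muscle, had 1388 in the mutant and 1930 in the wild type, and the 3 muscle markers that cleared the floor all had ratios below 0. No osteoblast marker at or above the floor reached 1.5-fold, and Ifitm5, an osteoblast membrane protein, had 120 in the mutant and 90.7 in the wild type. Fabp4, a fatty acid binding protein of adipocytes and the 1 adipocyte marker that cleared the floor, had 914 in the mutant and 562 in the wild type, 1.63-fold higher, and its 4 probe sets had log2 ratios of 0.28 to 0.79, the lowest being the one left without sets ending in _s_at, _x_at or _a_at. Adiponectin (Adipoq) lay below the floor, at 11.6 in the mutant and 11.2 in the wild type. The part of fat cells in the members' signal was not tested. Of 8 macrophage markers, 5 cleared the floor and none of these reached 1.5-fold, with summed intensities over all 8 of 1606 in the mutant and 1902 in the wild type.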
